A study of Mus musculus with 12 samples.

Results

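The genes of major histocompatibility complex (MHC) antigen presentation were examined in stromal cells of mouse joints, cell type by cell type. The members were the genes whose symbol begins with *H2-*, together with *B2m*, *Tap1*, *Tap2*, *Tapbp*, *Psmb8*, *Psmb9*, *Psmb10*, *Psme1*, *Psme2*, *Nlrc5*, *Ciita* and *Cd74*, and they numbered 46 of the 27998 genes in the count matrices. Of these, 34 belong to the class I pathway and 11 to the class II pathway, and *H2-Ke6* lies in the region without presenting antigen. By GENCODE M21 on GRCm38, 39 members lie on chromosome 17. The others are *B2m* on chromosome 2 (122147686 to 122153083), *Nlrc5* and *Psmb10* on chromosome 8, *Psme1* and *Psme2* on chromosome 14, *Ciita* on chromosome 16 and *Cd74* on chromosome 18.

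Live CD45-negative cells, a sort that is meant to leave out leukocytes, were taken from the hind limb joints of wild-type C57BL/6 male mice aged 8 to 10 weeks. Arthritis had been induced with 100 µl of K/BxN serum given intravenously (serum transfer-induced arthritis, STIA), and the labels name 4 stages. Libraries called rest had no serum (day 0), those called peak were taken 7 to 9 days after it, those called resolving at 15 days and those called resolved at 22 days. There were 3 libraries to a stage, and each library pooled 3 animals, so the spread between libraries is a spread between pools. RNA was counted from the 3′ end as unique molecular identifiers (UMIs) with the 10x method.

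Of 21042 deposited cells, 20060 lay within the limits that the study set on genes and UMIs, with 1227 to 2747 cells and 7468914 to 16566202 UMIs per library, and no cell barcode was shared by any of the 66 pairs of libraries. The median UMI count per deposited cell was 5358 in every library. Clusters were formed without the members and without a list of interferon genes, and were named from marker genes. The classes were fibroblast-like (12934 cells), vascular endothelial-like (1768), tenocyte-like (1509), osteoblast-like (1374), perivascular-like (655), proliferating (647), chondrocyte-like (312), muscle-like (266), lymphatic endothelial-like (185), immune-like (112) and Schwann-like (82), and 216 cells in 3 clusters stayed unnamed. Levels below are in CPM, UMIs scaled to 1000000, from UMIs summed over the cells of 1 class in 1 library, wherever that class had at least 10 cells. The barcode suffix, which runs from 1 to 12 over the libraries, grouped the libraries more closely than the stage label did. In fibroblast-like cells the nearest library by expression came from the same run of 3 suffixes for 12 of 12 libraries and had the same stage label for 0 of 12, so stages are given as the libraries labelled with them.

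Class I molecules are displayed by most nucleated cells. A heavy chain encoded in the H2 region pairs with the light chain β2-microglobulin (*B2m*) and carries a peptide that was cut by the proteasome, pumped into the endoplasmic reticulum by the TAP transporter and loaded with the help of tapasin. Class II molecules are normally made by professional antigen-presenting cells such as dendritic cells, B cells and macrophages, under the control of *Ciita*. Their chains travel with the invariant chain (*Cd74*), and the H2-DM proteins exchange its remnant for a peptide. Interferon raises both pathways, and vessel walls are known for high class I.

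The stretches of 200 bases before the start of transcription of 6 class I genes are shown because these genes differed in level between joint cell types, some of them in opposite directions. They come from RefSeq (GRCm38.p6), run 5′ to 3′ towards the start and carry in capitals every match, on either strand, to 4 motifs. These are the interferon-stimulated response element (ISRE, which is GAAA, any 2 bases and GAAA), the inverted CCAAT box (ATTGG), the core of the cyclic AMP response element (CRE core, TGACG) and an NF-kB site (GGGGA, any base and TCCC). For *H2-K1*, RefSeq lists more than 1 start, and the window of 1 of them is shown.
B2m (chr2:122147487-122147686, plus strand): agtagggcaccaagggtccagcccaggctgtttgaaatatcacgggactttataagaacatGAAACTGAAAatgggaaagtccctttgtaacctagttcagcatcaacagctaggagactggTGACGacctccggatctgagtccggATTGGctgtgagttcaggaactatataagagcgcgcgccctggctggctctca
H2-K1 (chr17:34000334-34000533, minus strand): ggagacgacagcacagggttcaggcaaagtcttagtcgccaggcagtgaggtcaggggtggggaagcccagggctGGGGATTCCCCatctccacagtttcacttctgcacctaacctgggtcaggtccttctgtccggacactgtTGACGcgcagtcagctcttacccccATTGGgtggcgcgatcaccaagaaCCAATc
H2-D1 (chr17:35262894-35263093, plus strand): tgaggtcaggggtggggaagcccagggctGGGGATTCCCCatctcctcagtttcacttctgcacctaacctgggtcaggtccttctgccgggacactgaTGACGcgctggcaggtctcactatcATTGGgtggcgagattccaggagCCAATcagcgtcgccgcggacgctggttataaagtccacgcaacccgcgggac
H2-Q4 (chr17:35379417-35379616, plus strand): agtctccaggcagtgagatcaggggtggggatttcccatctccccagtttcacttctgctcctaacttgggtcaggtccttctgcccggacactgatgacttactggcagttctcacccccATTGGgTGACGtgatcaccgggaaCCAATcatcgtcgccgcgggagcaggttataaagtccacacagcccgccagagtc
H2-Q6 (chr17:35424650-35424849, plus strand): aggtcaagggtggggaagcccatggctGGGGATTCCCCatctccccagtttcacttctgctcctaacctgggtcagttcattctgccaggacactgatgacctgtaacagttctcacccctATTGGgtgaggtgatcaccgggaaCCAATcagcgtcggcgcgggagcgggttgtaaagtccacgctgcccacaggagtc
H2-Q7 (chr17:35438955-35439154, plus strand): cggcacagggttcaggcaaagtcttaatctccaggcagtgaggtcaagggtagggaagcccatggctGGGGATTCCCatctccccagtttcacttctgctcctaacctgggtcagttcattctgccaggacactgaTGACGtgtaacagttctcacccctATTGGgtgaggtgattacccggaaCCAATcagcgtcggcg
In the windows of 250 bases before the start, a match to the ISRE letters was found in *B2m*, *H2-T22* and *H2-T23*, and in 2.98% of 32851 promoters in all. The NF-kB letters were found in *H2-D1*, *H2-K1*, *H2-Q6* and *H2-Q7*, against 0.289% of all promoters. The inverted CCAAT letters were found in 32 of 39 members with a promoter in the table (33.8% of all promoters) and the CRE core letters in 16 (17.8%). The longest run of bases shared by the windows was 66 for *H2-Q6* and *H2-Q7*, 47 for *H2-K1* and *H2-D1*, and 21 for *H2-D1* and *H2-Q4*. A match describes letters and not binding. The class I heavy chain genes also form a family of similar sequence, and how alike their transcripts are was not measured here. Reads of *H2-K1*, *H2-D1* and the H2-Q, H2-T and H2-M genes could have been split between copies or dropped in counting. Single heavy chains are uncertain to that extent.

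A further 3 windows are shown for class II, that of the class II α chain *H2-Aa* and those of the peptide exchange subunits *H2-DMb1* and *H2-DMb2*, since these behaved differently in chondrocyte-like cells. Capitals mark the same motifs.
H2-Aa (chr17:34287824-34288023, minus strand): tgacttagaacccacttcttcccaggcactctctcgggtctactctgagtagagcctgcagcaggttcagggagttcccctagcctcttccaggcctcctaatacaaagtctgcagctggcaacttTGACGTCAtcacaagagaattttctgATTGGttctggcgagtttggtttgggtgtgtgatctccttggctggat
H2-DMb1 (chr17:34152991-34153190, plus strand): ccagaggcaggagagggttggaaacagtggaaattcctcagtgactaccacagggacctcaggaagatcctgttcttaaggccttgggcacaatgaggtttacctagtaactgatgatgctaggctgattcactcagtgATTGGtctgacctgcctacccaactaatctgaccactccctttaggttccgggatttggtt
H2-DMb2 (chr17:34145049-34145248, plus strand): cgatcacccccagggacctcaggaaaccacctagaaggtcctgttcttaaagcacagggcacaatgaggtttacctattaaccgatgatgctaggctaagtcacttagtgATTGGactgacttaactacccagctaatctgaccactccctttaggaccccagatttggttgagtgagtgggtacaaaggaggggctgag
The 2 H2-DMb windows shared a run of 23 bases, and *H2-Aa* and *H2-DMb1* one of 8. The inverted CCAAT letters were in all 3 windows, while the CRE core letters were in *H2-Aa* and not in these windows of *H2-DMb1* and *H2-DMb2*.

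The members spanned a wide range of abundance. Over all cells, *B2m* had 163624 UMIs, *H2-D1* 104561, *H2-K1* 28239, the tapasin gene *Tapbp* 18483, and the proteasome activator subunits *Psme2* and *Psme1* 14181 and 9528. The nonclassical heavy chains *H2-Q4* and *H2-T22* had 7633 and 6619, the immunoproteasome subunits *Psmb8*, *Psmb10* and *Psmb9* 4857, 4708 and 1459, the transporter genes *Tap2* and *Tap1* 3600 and 1919, and *H2-Ke6* 3663. Further class Ib heavy chains had 2455 (*H2-T23*), 1729 (*H2-M3*), 1338 (*H2-Q7*), 796 (*H2-Q6*), 325 (*H2-Q10*), 106 (*H2-M9*) and 38 (*H2-T24*) UMIs. These totals give the counting depth of each gene and not an order of expression, since 3′ counts depend on the gene. Among class II genes, *Cd74* had 2164 UMIs, *H2-DMb1* 1701, *H2-Ab1* 1168, *H2-Aa* 835, *H2-Eb1* 640, *H2-DMa* 504, *H2-DMb2* 87 and *H2-Ob* 16. The master regulators were scarcely counted, with 86 UMIs for *Nlrc5* (class I) and 5 for *Ciita* (class II). A further 7 members had 1 to 7 UMIs (*H2-M11*, *H2-Q1*, *H2-Q2*, *H2-M2*, *H2-T3*, *H2-Oa* and *H2-M5*), and 8 had none (*H2-Eb2*, *H2-M1* and *H2-M10.1* to *H2-M10.6*).

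Each cell type was then compared with the fibroblast-like cells of the same libraries. The test was edgeR's quasi-likelihood test on summed counts with the library as a block. A call required a Benjamini-Hochberg adjusted p under 0.05 over all genes and a log2 fold change beyond 0.5. Of the 46 members, 25 passed the filter on low counts, among 9494 genes tested. With libraries scaled to total counts alone, the median over all genes moved by -0.17 (chondrocyte-like) to 0.63 (Schwann-like), and no called member changed sign. Fitted values of a gene with 0 UMIs in a type depend on the prior count of the fit and are no bounds. The clusters were formed from other genes of these same cells, so the comparisons describe how the members sit in types that were set apart by other genes.

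**Figure D1:**
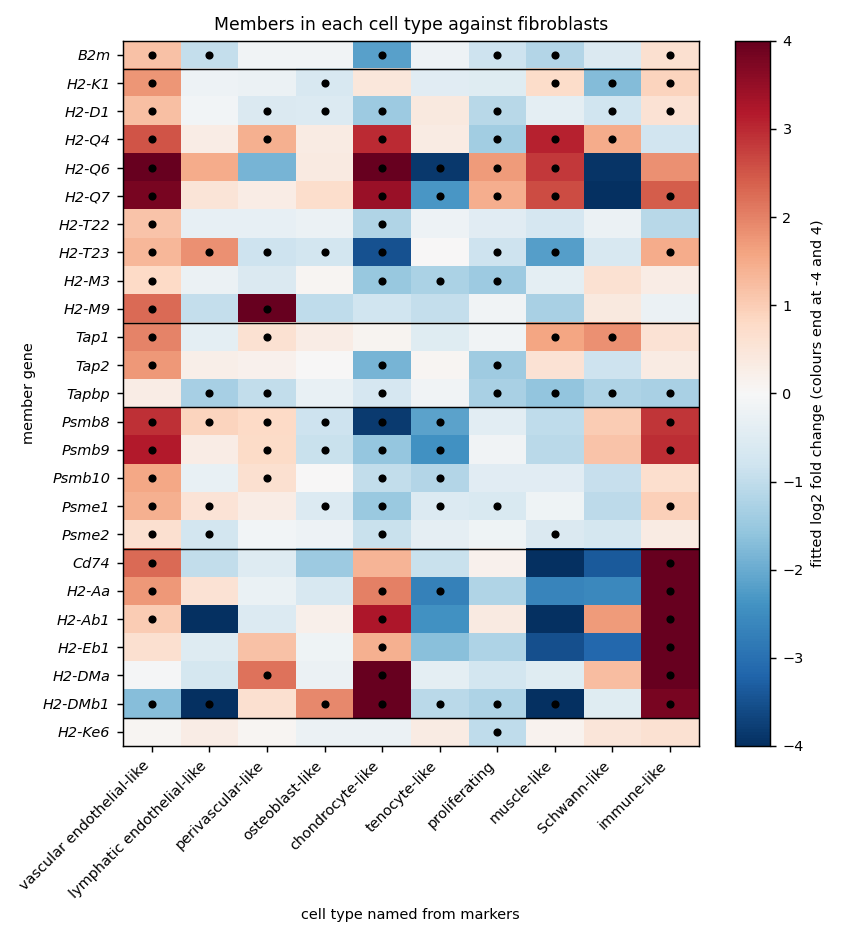
Fitted log2 fold change of the 25 tested members (rows, grouped as light chain, heavy chains, peptide loading, proteasome, class II and *H2-Ke6*) in each cell type against fibroblast-like cells (columns), with dots where the change was called. The vascular endothelial-like column is red in the class I rows, while the chondrocyte-like column is blue for *B2m*, *H2-D1* and the proteasome genes and red for H2-Q and H2-DM genes.

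Vascular endothelial-like cells carried most class I members at a higher level. Of the 25 tested members 20 were higher and 1 was lower than in fibroblast-like cells, where 27.0% of all genes tested were higher and 26.8% lower. The median log2 fold change was 1.43 over the members and 0.02 over all genes. Of the 18 class I members tested, 17 were higher, and *Tapbp* did not pass the size limit (log2 fold change 0.28 ± 0.12 SE).

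*B2m* ranged over the 12 libraries from 2448 to 3825 CPM (median 3291.5) in vascular endothelial-like cells and from 767 to 1749 CPM (median 1210) in fibroblast-like cells. Every vascular library lay above every fibroblast library, and the log2 fold change was 1.17 ± 0.14 (SE, edgeR adjusted p = 1.48e-12). The classical heavy chain *H2-D1* ran from 1532 to 2776 CPM (median 2243) against 411 to 1096 (median 866), also without overlap, with a log2 fold change of 1.19 ± 0.11 (SE, edgeR adjusted p = 2.36e-16). For the other classical heavy chain, *H2-K1*, the vascular libraries held 494 to 1043 CPM (median 834) and the fibroblast libraries 158 to 246 (median 192), and the log2 fold change was 1.77 ± 0.13 (SE, edgeR adjusted p = 7.73e-22).

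The nonclassical heavy chains and the peptide machinery differed by more than the classical chains in several cases. *H2-Q4*, a Qa-region heavy chain, averaged 246 ± 85.8 CPM (SD, n = 12) against 36.2 ± 14.9, a log2 fold change of 2.53 ± 0.18 (SE). *H2-Q6* and *H2-Q7*, which encode Qa-2, were nearly absent from fibroblast-like cells (1.07 ± 1.08 and 4.17 ± 3.08 CPM, SD, n = 12) and reached 55.5 ± 21.9 and 64.7 ± 25.2 CPM, log2 fold changes of 5.18 ± 0.27 and 3.78 ± 0.25 (SE). *H2-T23*, which encodes the Qa-1 ligand of NKG2A, and *H2-T22*, a ligand of γδ T cells, had log2 fold changes of 1.34 and 1.13, and *H2-M3*, which presents formylated peptides, 0.79. The inducible proteasome subunits that replace the constitutive catalytic subunits rose by 3.17 (*Psmb9*), 2.91 (*Psmb8*) and 1.53 (*Psmb10*) on the log2 scale. *Psmb8* was at 161 to 303 CPM (median 239) in vascular libraries and at 17.6 to 37.4 CPM (median 27.0) in fibroblast libraries, again without overlap. The TAP subunits *Tap1* and *Tap2* were higher by 1.98 and 1.74, and the activator subunits *Psme1* and *Psme2* by 1.43 and 0.63 on the log2 scale. All of the class I calls but *H2-M9* went the same way in 12 of 12 libraries.

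The class II members were low in these cells. *Cd74* was at 10.7 ± 10.7 CPM against 1.96 ± 1.75 (SD, n = 12; log2 fold change 2.27 ± 0.34 SE), and *H2-Aa* at 2.51 ± 2.06 CPM against 0.65 ± 0.71 (log2 fold change 1.72). In all, 26 of 1768 vascular endothelial-like cells (1.47%, 95% Wilson interval 1.01 to 2.15) had a *Cd74* UMI, at most 18 in a cell, against 1.04% of fibroblast-like cells, whose median depth was 5815 UMIs against 3176.5. Intervals here and below cover counting error only. The 7 immune markers summed to 1.86 to 86.1 CPM over the vascular libraries and 2.47 to 16.8 CPM over the fibroblast ones. Over all cells of each type, 4 of these markers had more CPM in vascular endothelial-like than in fibroblast-like cells (*Fcer1g* 7.25 against 0.69, *Laptm5* 2.82 against 0.082, *Tyrobp* 1.61 against 0.79 and *Ptprc* 0.27 against 0.035). The other 3 had less (*Lyz2* 2.15 against 5.26, *Cd52* 0.40 against 0.49 and *Coro1a* 0.94 against 1.06). None was at 0, and their part in the class II values was not tested. The peptide exchange gene *H2-DMb1* was the member that was lower (log2 fold change -1.70 ± 0.40 SE, lower in 11 of 12 libraries). Of the 21 calls, 19 held in every alternative analysis that tested the gene (*H2-M3* was below the filter on low counts after thinning to 2000 UMIs). *H2-Ab1* (log2 fold change 1.01) lost its call without peak replicate 3, rest replicate 1 or any of resolving replicates 1, 2 and 3 (edgeR adjusted p = 0.0587 to 0.175), and *H2-M9* (2.27) without peak replicate 1 or resolving replicate 2 (edgeR adjusted p = 0.0643 to 0.0907). *H2-DMa*, *H2-Eb1* and *H2-Ke6* were not called (log2 fold changes -0.04 to 0.63).

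Genes that respond to interferon were high in the same cells. Of a list of 32 interferon-induced and interferon signalling genes, 27 were higher and 2 (*Ifi27l2a* and *Socs1*) lower in vascular endothelial-like cells, and the list summed to 4054 ± 919 CPM against 1023 ± 126 in fibroblast-like cells (SD, n = 12). The changes were largest for the GTPase *Gbp4*, the immunity-related GTPase *Iigp1* and the antiviral enzyme *Rsad2* (log2 fold changes 8.0, 5.94 and 5.73). A second list of 22 genes is called other antigen processing genes here, though it also holds genes that do not process antigen, such as *Cd274* and *Cd40*. Of this list 18 were tested, 4 were higher (*Cd274*, *Cd40*, *Tapbpl* and *Erap1*) and 4 lower (*Ifi30*, *Sec61b*, *Calr* and *Pdia3*). The checkpoint ligand *Cd274* (log2 fold change 5.09) and the tapasin relative *Tapbpl* (1.82) were thus higher, whereas calreticulin (*Calr*, -0.99) and the disulfide isomerase *Pdia3* (-0.76), general chaperones of the endoplasmic reticulum, were lower.

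**Figure D2:**
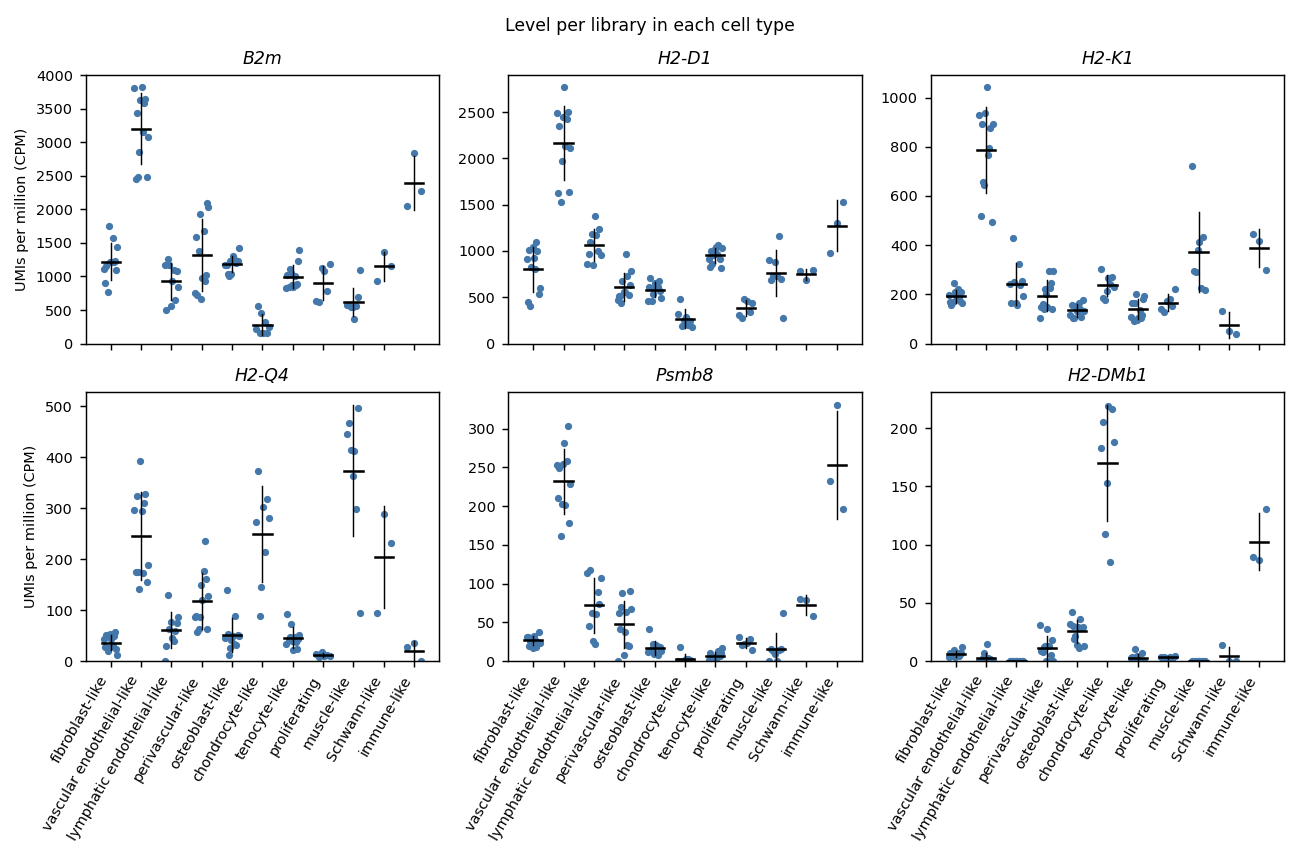
Level of *B2m*, *H2-D1*, *H2-K1*, *H2-Q4*, *Psmb8* and *H2-DMb1* (CPM) in each cell type, with 1 point for each library that had at least 10 cells of the type and bars for the mean and SD. Vascular endothelial-like libraries stand above the fibroblast-like ones in the first 5 panels, and chondrocyte-like libraries stand low for *B2m* and high for *H2-Q4* and *H2-DMb1*.

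The vascular cells formed 2 clusters that differed in class I level, described here without a test. The first (1145 cells) was led by *Timp4*, *Aqp7* and *Car4*, and the second (623 cells) by *Selp*, *Plvap* and *Vwf*. In the first cluster *B2m* averaged 4107 ± 486 CPM, *H2-D1* 2819 ± 223 and *H2-K1* 1024 ± 148 (SD, n = 12), and in the second 2402 ± 280, 1651 ± 272 and 619 ± 149. The first cluster was the higher in 12 of 12 libraries for each of these genes and for *H2-Q4* (376 ± 39.5 against 143 ± 46.8 CPM), *H2-Q6*, *Psmb8*, *Psmb10*, *Psme2*, *Tap2* and *Tapbp*. *Cd74* ran the other way, at 7.92 ± 23.6 CPM in the first cluster and 24.1 ± 31.6 in the second.

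Chondrocyte-like cells showed the opposite of the vascular pattern for most of the class I pathway and a rise of part of class II. In the 8 libraries with enough of these cells, 12 of the 25 tested members were lower (28.2% of all genes tested) and 8 higher (19.9% of all genes tested). The median log2 fold change was -0.69 over the members and -0.15 over all genes. *B2m* was at 157 to 560 CPM (median 230) in chondrocyte-like cells, below the fibroblast-like cells in 8 of 8 libraries, with a log2 fold change of -2.18 ± 0.18 (SE, edgeR adjusted p = 1.7e-19). *H2-D1* was at 179 to 485 CPM (median 247; log2 fold change -1.46 ± 0.15 SE) and lower in 7 of 8 libraries. *Psmb8*, *H2-T23* and *Psmb9* had medians of 0.52, 0 and 0 CPM there, and *Psmb8* had 6 UMIs in all in these sums. *Tap2*, *H2-M3*, *Psme1*, *H2-T22*, *Psmb10*, *Psme2* and *Tapbp* were lower too, by log2 fold changes from -1.87 (*Tap2*) to -0.69 (*Tapbp*). *H2-K1* (log2 fold change 0.45 ± 0.16 SE) and *Tap1* (0.10 ± 0.28) were not called.

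The Qa-region heavy chains broke with this. *H2-Q4* was at 88.8 to 373 CPM (median 278) in chondrocyte-like cells, above the fibroblast-like cells of the same library in 8 of 8, with a log2 fold change of 3.00 ± 0.21 (SE, edgeR adjusted p = 1.97e-23). *H2-Q6* and *H2-Q7* were higher by 4.93 ± 0.37 and 3.46 ± 0.34 (SE), each in 8 of 8 libraries. Thus *B2m*, the light chain that class I heavy chains need for display, and these heavy chains moved in opposite directions in the same cells.

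The H2-DM genes were the class II members that stood out in chondrocyte-like cells. *H2-DMb1* was at 85.4 to 219 CPM (median 185) in chondrocyte-like cells, against a fibroblast-like mean of 6.34 ± 1.85 CPM in those 8 libraries (SD), with a log2 fold change of 4.77 ± 0.22 (SE, edgeR adjusted p = 3.06e-32). Its partner *H2-DMa* was at 15.3 to 69.7 CPM (median 45.2) against 1.74 ± 0.24 (log2 fold change 4.77 ± 0.29 SE), and both were higher in 8 of 8 libraries. A UMI of *H2-DMb1* was present in 215 of 312 chondrocyte-like cells (68.9%, 95% Wilson interval 63.6 to 73.8), of *H2-DMa* in 127 (40.7%, 35.4 to 46.2) and of *H2-DMb2* in 48 (15.4%, 11.8 to 19.8). The same share for *H2-DMb1* was 3.90% of fibroblast-like, 13.8% of osteoblast-like and 0.679% of vascular endothelial-like cells. Depth differed, with a median of 12533.5 UMIs per chondrocyte-like cell. After every cell was thinned to 2000 UMIs, leaving out 216 fibroblast-like, 18 osteoblast-like, 201 vascular endothelial-like and 0 chondrocyte-like cells, the shares were 29.2%, 1.20%, 4.87% and 0.255% for chondrocyte-like, fibroblast-like, osteoblast-like and vascular endothelial-like cells. *H2-DMb1* and *H2-DMb2* are close copies whose reads could have been split or dropped, so their separate values are uncertain.

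In chondrocyte-like cells the antigen-binding class II chains and the invariant chain had fewer UMIs than *H2-DMb1* (753) and *H2-DMa* (219). *H2-Ab1*, with 78 UMIs, was counted about as often as *H2-DMb2*, with 76. *Cd74* had a UMI in 9 of 312 chondrocyte-like cells (2.88%) and was not called (log2 fold change 1.37 ± 0.67 SE). *H2-Ab1* was at 20.1 ± 11.2 CPM against 3.23 ± 3.87 (SD, n = 8; log2 fold change 3.24 ± 0.44 SE), higher in 7 of 8 libraries. *H2-Aa* (2.01 ± 0.68 SE) lost its call without peak replicate 1 (edgeR adjusted p = 0.0611). *H2-Eb1* (1.43 ± 0.60 SE, higher in 4 of 8 libraries) lost its call without peak replicate 1, peak replicate 2, resolving replicate 2 or rest replicate 2 (edgeR adjusted p = 0.0548 to 0.291) and had the opposite sign in thinned cells, where *Psmb9* lost its call as well (edgeR adjusted p = 0.0846). The 7 immune markers summed to 0 to 25.6 CPM over the chondrocyte-like libraries, and *Ptprc* was at 0. The interferon list ran mainly lower in these cells, with 17 of 32 genes lower and 2 (*Jak2* and *Socs1*) higher, and of 18 other antigen processing genes 3 (*Ifi30*, *Lgmn* and *Sec61b*) were higher and 1 (*Erap1*) lower. *H2-Ke6* and *H2-M9* were not called either (log2 fold changes -0.80 to -0.24).

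Osteoblast-like cells shared the *H2-DMb1* direction at a smaller size. *H2-DMb1* was at 11.2 to 42.1 CPM (median 28.7) there and 3.55 to 12.4 CPM (median 6.01) in fibroblast-like cells, higher in 12 of 12 libraries, with a log2 fold change of 1.91 ± 0.21 (SE, edgeR adjusted p = 2.81e-12). This was the member that was higher, against 12.1% of all genes tested. A further 6 were lower (16.5% of all genes tested), namely *Psmb9* (log2 fold change -0.90), *Psmb8* (-0.82), *H2-T23* (-0.75), *H2-K1* (-0.64), *Psme1* (-0.56) and *H2-D1* (-0.53). The last lay near the size limit and lost its call without peak replicate 1, resolved replicate 3, resolving replicate 1 or resolving replicate 3 (log2 fold change -0.49 to -0.45). *Psmb9* lost its call without peak replicate 1 and *Psme1* without resolving replicate 1 (edgeR adjusted p = 0.0694 and 0.00016, the second with a log2 fold change just inside the limit), and *H2-T23* with clustering at resolution 0.5 (edgeR adjusted p = 0.101). *B2m*, *Cd74*, *H2-Aa*, *H2-Ab1*, *H2-DMa*, *H2-Eb1*, *H2-Ke6*, *H2-M3*, *H2-M9*, *H2-Q4*, *H2-Q6*, *H2-Q7*, *H2-T22*, *Psmb10*, *Psme2*, *Tap1*, *Tap2* and *Tapbp* were tested and not called (log2 fold changes -1.44 to 0.72).

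Tenocyte-like cells had 0 members higher by edgeR (7.83% of all genes tested) and 9 lower (12% of all genes tested). The immunoproteasome was the clearest group, with *Psmb9* at 1.13 ± 1.66 CPM against 7.54 ± 2.28, *Psmb8* at 6.90 ± 5.15 against 26.7 ± 6.37 and *Psmb10* at 14.1 ± 8.25 against 33.4 ± 8.41 (SD, n = 12). Their log2 fold changes were -2.41, -2.15 and -1.17, and each was lower in 12 of 12 libraries. *H2-M3* (-1.26), *H2-Q7* (-2.34) and *Psme1* (-0.54) were lower as well, whereas *B2m* (-0.21 ± 0.14 SE) was not called, and *H2-D1* (0.38, edgeR adjusted p = 0.00815) and *H2-K1* (-0.44) were under the size limit. *H2-Q6* and *H2-Aa* were listed at 0 UMIs in 1509 tenocyte-like cells, which allows a share of up to 0.199% of cells with a UMI, and *H2-Aa* lost its call without peak replicate 3, rest replicate 1 or rest replicate 3 (edgeR adjusted p = 0.0568 to 0.076). *H2-DMb1* (-1.08) lost its call without any of 5 libraries (peak replicate 3, resolved replicate 2, resolving replicate 2, rest replicate 2 and rest replicate 3, edgeR adjusted p = 0.0563 to 0.0995), and *Psme1* without resolving replicate 1 (log2 fold change -0.47). *H2-Q6* lost its call after thinning to 2000 UMIs, with clustering at resolution 0.5, without upper limits on UMIs and genes and with DESeq2 (adjusted p = 0.102 to 0.149). The remaining tested members, *Cd74*, *H2-Ab1*, *H2-DMa*, *H2-Eb1*, *H2-Ke6*, *H2-M9*, *H2-Q4*, *H2-T22*, *H2-T23*, *Psme2*, *Tap1*, *Tap2* and *Tapbp*, were not called (log2 fold changes -2.41 to 0.34).

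Perivascular-like cells, which surround vessels, had 7 members higher (17.8% of all genes tested) and 3 lower (23.5% of all genes tested). *H2-Q4* rose by 1.43 ± 0.21 (SE) on the log2 scale, in 12 of 12 libraries, from 36.2 ± 14.9 CPM in fibroblast-like cells to 118 ± 54.6 (SD, n = 12). *H2-DMa* (2.18), *Psmb8* (0.81), *Psmb9* (0.77), *Psmb10* (0.63) and *Tap1* (0.61) were higher too. *Tapbp* (-0.98), *H2-T23* (-0.82) and *H2-D1* (-0.56) were lower, the last in 7 of 12 libraries. *H2-D1* lost its call without peak replicate 1 or resolving replicate 1 (log2 fold change -0.48 to -0.46), *Psmb10* without resolved replicate 2, *Psmb9* without peak replicate 2, resolved replicate 2, rest replicate 2 or rest replicate 3 (edgeR adjusted p = 0.0645 to 0.106) and *Tap1* without resolved replicate 2 or resolving replicate 3 (edgeR adjusted p = 0.0805 to 0.0829). *H2-T23* lost its call after thinning to 2000 UMIs (edgeR adjusted p = 0.064).

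The class Ib heavy chain *H2-M9* was counted mainly in perivascular-like cells. These held 90 of its 106 UMIs, in 29 of 655 cells (4.43%, 95% Wilson interval 3.10 to 6.29), with at most 22 in a cell. Fibroblast-like cells held 9 UMIs in 1 of 12934 cells and vascular endothelial-like cells 7 in 5 of 1768. By library the perivascular level ran from 0 to 297 CPM (median 22.4), and it was above the fibroblast level in 10 of 12 libraries (log2 fold change 7.30 ± 0.55 SE). *B2m*, *Cd74*, *H2-Aa*, *H2-Ab1*, *H2-DMb1*, *H2-Eb1*, *H2-K1*, *H2-Ke6*, *H2-M3*, *H2-Q6*, *H2-Q7*, *H2-T22*, *Psme1*, *Psme2* and *Tap2* did not pass in perivascular-like cells (log2 fold changes -1.85 to 1.17).

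Lymphatic endothelial-like cells did not share the vascular profile. There 3 members were higher (13.8% of all genes tested) and 4 lower (26.3% of all genes tested). *H2-T23* was at 42.8 to 167 CPM (median 120) in 10 libraries, against 10.5 to 29.5 CPM (median 17.1) over the 12 fibroblast-like libraries, without overlap, with a log2 fold change of 1.83 ± 0.23 (SE, edgeR adjusted p = 4.12e-11). *Psmb8* (0.90) and *Psme1* (0.55) were the other higher members, lost without resolved replicate 1 for *Psmb8* (edgeR adjusted p = 0.0552) and without resolved replicate 2, resolving replicate 2 or rest replicate 3 for *Psme1* (log2 fold change 0.39 to 0.49). *Tapbp* (-1.32), *B2m* (-0.94) and *Psme2* (-0.74) were lower. With scaling to total counts alone, the median over all genes moved by 0.55 in this comparison, *B2m* was at -0.38 and *Psme2* at -0.18, and neither was called. *H2-DMb1* was listed at 0 UMIs in 185 cells, which allows up to 1.62%, and its call was lost with DESeq2, after thinning, with clustering at resolution 0.5 and without fibroblast clusters that passed markers of another class (adjusted p = 0.0507 to 0.0825). Of the interferon list, 9 of 32 were higher and 5 lower. No call was made for *Cd74*, *H2-Aa*, *H2-Ab1*, *H2-D1*, *H2-DMa*, *H2-Eb1*, *H2-K1*, *H2-Ke6*, *H2-M3*, *H2-M9*, *H2-Q4*, *H2-Q6*, *H2-Q7*, *H2-T22*, *Psmb10*, *Psmb9*, *Tap1* and *Tap2* (log2 fold changes -4.84 to 1.5).

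Muscle-like cells, led by *Myod1*, *Asb5* and *Pax7*, had 5 members higher (11.7% of all genes tested) and 5 lower (28.0% of all genes tested). *H2-Q4* was at 93.8 to 497 CPM (median 413) in the 8 libraries, higher in 8 of 8 (log2 fold change 3.08 ± 0.23 SE, edgeR adjusted p = 1.34e-20). *H2-K1* was higher by 0.72 ± 0.18 (SE) in 8 of 8 libraries, and *H2-Q6* (2.83), *H2-Q7* (2.62) and *Tap1* (1.57) were higher as well. *B2m* ran from 366 to 1095 CPM (median 566) and was lower in 8 of 8 libraries (-1.17 ± 0.17 SE), as was *Tapbp* (-1.58 ± 0.24 SE). *H2-T23* (-2.19) and *Psme2* (-0.57) were lower, and *H2-DMb1* was listed at 0 UMIs in 266 cells, which allows up to 1.13%. *H2-Q6* lost its call without peak replicate 1 or peak replicate 3 (edgeR adjusted p = 0.0504 to 0.0516) and *Psme2* without peak replicate 1 (edgeR adjusted p = 0.0782). *H2-DMb1* lost its call without any of peak replicates 1 and 3, resolved replicate 3, resolving replicates 1 and 2, and rest replicates 1 and 3 (edgeR adjusted p = 0.0512 to 0.069). After thinning to 2000 UMIs *H2-Q7* and *H2-T23* lost theirs (edgeR adjusted p = 0.0719 and 0.0905). *Cd74*, *H2-Aa*, *H2-Ab1*, *H2-D1*, *H2-DMa*, *H2-Eb1*, *H2-Ke6*, *H2-M3*, *H2-M9*, *H2-T22*, *Psmb10*, *Psmb8*, *Psmb9*, *Psme1* and *Tap2* had log2 fold changes of -4.12 to 0.57 and were not called.

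Proliferating cells, named by cell cycle genes, were present in 12 libraries and numerous enough to be tested in 6. Among members, 10 were lower (18.4% of all genes tested) and 2 higher (9.14% of all genes tested). *H2-D1* was at 277 to 477 CPM (median 390) and lower in 6 of 6 libraries (log2 fold change -1.11 ± 0.15 SE), as were *B2m* (-0.82), *Tapbp* (-1.31), *Tap2* (-1.43), *H2-Q4* (-1.40) and *H2-Ke6* (-1.02). *H2-M3* (-1.47), *H2-T23* (-0.83), *Psme1* (-0.61) and *H2-DMb1* (-1.23) were lower too. *H2-Q7* (1.47, in 6 of 6) and *H2-Q6* (1.70, in 5 of 6) were higher. *H2-DMb1* lost its call without resolved replicate 2 or rest replicate 2 (edgeR adjusted p = 0.0646 to 0.0654), and *H2-Q6* without peak replicate 2 (edgeR adjusted p = 0.0987). With scaling to total counts alone *Psme1* was inside the size limit (log2 fold change -0.41). For *Cd74*, *H2-Aa*, *H2-Ab1*, *H2-DMa*, *H2-Eb1*, *H2-K1*, *H2-M9*, *H2-T22*, *Psmb10*, *Psmb8*, *Psmb9*, *Psme2* and *Tap1*, the log2 fold changes of -1.22 to 0.35 did not pass.

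Schwann-like cells could be compared in 3 libraries, in which 2 members were higher (4.79% of all genes tested) and 3 lower (11.8% of all genes tested). The heavy chain *H2-K1* was at 38.6, 52.5 and 134 CPM and below fibroblast-like cells in all 3 (log2 fold change -1.73 ± 0.42 SE). *H2-Q4* (1.49) and *Tap1* (1.84) were higher, and *H2-D1* (-0.78) and *Tapbp* (-1.24) lower. None of these 5 calls held in every alternative, *H2-K1* being lost with scaling to total counts alone (edgeR adjusted p = 0.0761). *H2-D1* was lost without resolved replicate 3, *H2-Q4* without resolved replicate 3 or rest replicate 1, *Tap1* without peak replicate 3 or rest replicate 1 and *Tapbp* without rest replicate 1 (edgeR adjusted p = 0.0644 to 0.483 over these). The lysozyme gene *Lyz2*, used here as an immune marker, was at 5527 CPM in Schwann-like cells, while the other immune markers were at 0 except *Ptprc* (3.70 CPM). *Tapbp* was lower than in fibroblast-like cells in 7 of the 10 types compared. In these few cells *B2m*, *Cd74*, *H2-Aa*, *H2-Ab1*, *H2-DMa*, *H2-DMb1*, *H2-Eb1*, *H2-Ke6*, *H2-M3*, *H2-M9*, *H2-Q6*, *H2-Q7*, *H2-T22*, *H2-T23*, *Psmb10*, *Psmb8*, *Psmb9*, *Psme1*, *Psme2* and *Tap2* were not called (log2 fold changes -5.10 to 1.70).

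Beside the members, the interferon list had 13 of 32 genes higher and 6 lower in perivascular-like cells, 10 higher and 4 lower in osteoblast-like cells, 4 higher and 15 lower in tenocyte-like cells, and 0 higher and 12 lower in proliferating cells. In muscle-like, Schwann-like and immune-like cells it had 5, 4 and 4 higher and 3, 1 and 3 lower. By edgeR the other antigen processing genes had 0 higher in osteoblast-like, perivascular-like, tenocyte-like, proliferating and Schwann-like cells (1, 0, 1, 4 and 0 were higher at an adjusted p under 0.05 with a change inside the size limit, and 1, 0, 1, 5 and 0 at an unadjusted p under 0.05), with 2, 5, 1, 1 and 4 of 18 lower. In lymphatic endothelial-like, muscle-like and immune-like cells 2, 2 and 4 were higher and 7, 6 and 3 lower.

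Class II chains were found mainly in the few immune-like cells present despite the CD45-negative sort. These 112 cells, 0.558% of all, held 89.1% of the UMIs of *H2-Aa*, 85.6% of *Cd74*, 74.1% of *H2-Eb1* and 64.6% of *H2-Ab1*. The H2-DM genes were distributed differently. Immune-like cells held 13.1% of the *H2-DMa* UMIs, 3.35% of *H2-DMb1* and 6.90% of *H2-DMb2*, whereas chondrocyte-like cells held 43.5%, 44.3% and 87.4%, and fibroblast-like cells 28.0%, 33.2% and 3.45%.

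**Figure D3:**
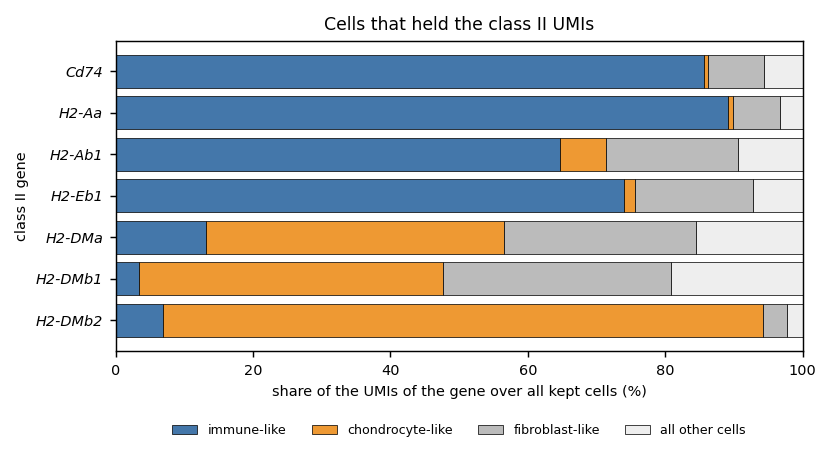
Share of the UMIs of each class II gene (%) that lay in immune-like, chondrocyte-like, fibroblast-like and all other cells, over all kept cells. Immune-like cells hold 64.6% to 89.1% for *Cd74*, *H2-Aa*, *H2-Ab1* and *H2-Eb1*, and chondrocyte-like cells 43.5% to 87.4% for the H2-DM genes.

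The immune-like cluster was led by the neutrophil genes *S100a8* and *Ngp* and was mixed. By the list of markers with the most UMIs (at least 3), 46 cells led with neutrophil, 35 with macrophage, 13 with B cell, 3 with dendritic cell and 1 with T cell genes, and 14 with none. The B cell list was not particular to immune-like cells. It summed to 210, 13.1 and 922 CPM in peak, resolving and resolved replicate 2, and to 291 to 474 CPM in vascular endothelial-like libraries. A B cell lead therefore does not show that a cell was a B cell. *Cd74* was counted in 18 of the 35 macrophage-led cells (at most 127 UMIs), 3 of the 46 neutrophil-led, 4 of the 13 B cell-led and 2 of the 3 dendritic-led, the 1 T cell-led cell and 5 of the 14 without a lead, which held 740 of its 1853 UMIs in immune-like cells. Compared with fibroblast-like cells in the 3 libraries with at least 10 such cells, 14 members were higher (11.3% of all genes tested) and 1 lower (20.4% of all genes tested). *Cd74* was at 2585, 2172 and 9065 CPM in peak replicate 2, resolving replicate 2 and resolved replicate 2, and *H2-Ab1* at 970, 785 and 4767 CPM. Resolved replicate 2 stood above the others in both. The log2 fold changes were 10.45 for *Cd74*, 10.87 for *H2-Aa*, 9.18 for *H2-Eb1*, 8.93 for *H2-Ab1*, 6.16 for *H2-DMa* and 3.80 for *H2-DMb1*, and these and *Psmb8* (2.86) held in every alternative. The other calls did not, namely *Psmb9* (2.95), *H2-Q7* (2.43), *H2-T23* (1.47), *Psme1* (0.95), *H2-K1* (0.88), *B2m* (0.63), *H2-D1* (0.59) and, lower, *Tapbp* (-1.31). Peak replicate 2 gave 39 of the 112 cells, and without it all of these except *H2-D1* lost their call (edgeR adjusted p = 0.058 to 0.86). Without resolving replicate 2, *H2-D1* and *B2m* lost theirs (edgeR adjusted p = 0.335 and 0.169), and without resolved replicate 2, *H2-Q7* did (edgeR adjusted p = 0.0627). The uncalled members were *H2-Ke6*, *H2-M3*, *H2-M9*, *H2-Q4*, *H2-Q6*, *H2-T22*, *Psmb10*, *Psme2*, *Tap1* and *Tap2* (log2 fold changes -1.12 to 1.84).

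Outside the immune-like cluster, 202 of 19948 cells (1.01%) had a *Cd74* UMI, 38 of them with a class II chain UMI as well, and 8 had at least 5 *Cd74* UMIs. An immune marker was counted in 10.4% of these 202 cells and in 4.48% of the rest. *Ciita* had 5 UMIs in all cells, and *Nlrc5* was at 3.23 ± 2.22 CPM (SD, n = 12) in vascular endothelial-like cells, with 22 UMIs, and had 42 UMIs in fibroblast-like cells, too few for a test.

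Among fibroblast-like cells, the lining-like cluster had the highest mean *B2m*, *H2-D1* and *H2-K1*. This cluster (1100 cells) was led by *F13a1*, *Rab37* and *Col22a1*, with the lubricin gene *Prg4* and *Clic5* among its leading genes, and was compared with the sublining-like cluster (1468 cells) that holds *Dpp4* and *Pi16*. Of 5816 genes and 13 members tested in the 12 libraries, 4 members were higher (12.2% of all genes tested) and 4 lower (14.2% of all genes tested) in the lining. *B2m* was at 1374 to 4350 CPM (median 1776) in the lining and 1047 to 1583 CPM (median 1239) in the sublining, and *H2-D1* at 1064 to 2438 (median 1505) and 782 to 1109 (median 951). *H2-K1* was at 253 to 864 CPM (median 349) and 138 to 306 (median 213). The ranges overlapped for each of the 3 genes, yet within a library the lining was higher in 12 of 12. The log2 fold changes were 0.63 ± 0.10, 0.63 ± 0.09 and 0.85 ± 0.13 (SE, edgeR adjusted p = 1.17e-05, 7.19e-06 and 1.5e-05), and *H2-Q4* was higher by 0.89 ± 0.18, also in 12 of 12.

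Other class I members were lower in the lining than in this sublining-like cluster. The other fibroblast clusters were not part of the test, so neither the higher nor the lower calls extend to them. *H2-T23* was at 10.5 ± 5.65 CPM against 25.0 ± 7.22 (SD, n = 12), lower in 12 of 12 libraries with a log2 fold change of -1.32 ± 0.19 (SE, edgeR adjusted p = 5.28e-06). *Tapbp* was at 125 ± 19.4 CPM against 203 ± 20.3 (log2 fold change -0.72 ± 0.08 SE), also lower in 12 of 12. *Psmb8* (-0.90) and *Psmb10* (-0.58) were lower in 10 of 12 libraries each, while *Psme1* (-0.47), *Tap2* (-0.50), *H2-T22* (-0.33), *Psme2* (0.06) and *H2-Ke6* (-0.02) were not called. These 8 calls held without any single library. After thinning to 2000 UMIs *B2m*, *H2-D1*, *H2-K1* and *Tapbp* were still called (log2 fold changes 0.57, 0.60, 0.89 and -0.78), while *H2-Q4*, *H2-T23*, *Psmb8* and *Psmb10* fell below the filter on low counts and were not tested. Of 12 tested genes of the interferon list 1 was higher and 4 were lower, and of 13 other antigen processing genes edgeR called 0. Of these, 4 (*Canx*, *Psmb7*, *Psmb5* and *Sec61b*) were higher at an adjusted p under 0.05 with log2 fold changes of 0.26 to 0.32, inside the size limit, and the same number passed an unadjusted p under 0.05.

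Across all 12 fibroblast clusters, the lining-like cluster was the highest for *H2-K1* in 12 of 12 libraries, for *H2-D1* in 11 and for *B2m* in 9. The cluster led by *Cytl1* and *Saa1* had the lowest mean *B2m*, at 693 ± 140 CPM (SD, n = 11), with *Psmb8* at 1.76 ± 3.91 CPM and *H2-T23* at 2.47 ± 4.44. It also passed 3 chondrocyte markers. The cluster led by *Cxcl5* and *Saa3* had the lowest mean *H2-D1* (322 ± 73.4 CPM, SD, n = 6). *H2-Q4* was highest in the cluster led by *Nppc* and *Egfl6* (94.9 ± 38.5 CPM, n = 12), where *H2-DMb1* was also highest (17.1 ± 8.06 CPM), and lowest in the cluster led by *Slurp1* and *Gjb5* (4.99 ± 5.92 CPM, n = 7). *Psmb8* was highest in the clusters led by *Ifi205* and *Ccl7* (50.0 ± 21.1 CPM) and by *Inmt* and *Serpina3c* (48.6 ± 18.2 CPM, n = 12 each). These values are given without a test.

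No member was called between a later stage label and rest, but these tests could miss changes. The labels also did not group the libraries. The nearest library by expression had the same label for 0 of 12 fibroblast and 1 of 12 vascular libraries. The lack of calls therefore does not show that the members kept their level over the course of arthritis. In simulated data, peak against rest called 24.2% of built-in log2 changes of 1 and 67.2% of changes of 2 in fibroblast-like cells. The same shares were 15.6% and 74.2% in vascular endothelial-like cells. The changed genes were drawn at random from all genes that passed the filter, and the libraries were simulated without runs of suffixes. These shares therefore do not describe single members. In fibroblast-like cells 22 members were tested among 11927 genes, and edgeR called 0 members and 0.0% of all genes for peak, resolving and resolved against rest. At an unadjusted p under 0.05 there were 83, 88 and 68 genes, with 0 members among them, and DESeq2 also called 0 members. *B2m* was at 1224, 1103 and 1445 CPM in the libraries labelled rest (replicates 1 to 3), 1118, 898 and 1150 at peak, 1222, 1577 and 1208 at resolving, and 767, 1749 and 1212 at resolved. The labels overlapped. *H2-D1* was at 995, 539 and 597 CPM at rest, 909, 447 and 1011 at peak, 922, 810 and 1096 at resolving, and 411, 823 and 1042 at resolved, again with overlap. The log2 fold changes against rest for peak, resolving and resolved were -0.22, 0.09 and 0.01 (each ± 0.27 SE) for *B2m*, 0.20, 0.42 and 0.15 (± 0.39) for *H2-D1*, and -0.05, 0.13 and 0.20 (± 0.19) for *H2-K1*. A library was far from its label's others in several cases, and without resolved replicate 2, which had the highest *B2m*, the resolved value for *B2m* was -0.28, and without resolved replicate 1, which had the lowest, it was 0.26. Over the 22 members the fitted values ran from -0.73 (*H2-DMb1*) to 0.66 (*H2-Ab1*) at peak, -1.11 (*H2-Q10*) to 0.45 (*H2-M3*) at resolving and -1.02 (*Cd74*) to 1.44 (*H2-Ab1*) at resolved. The 3 contrasts share the rest libraries. With the run of 3 barcode suffixes as a block, 0 members were called in either direction, and the values for peak, resolving and resolved were -0.12, -0.07 and -0.11 for *B2m* and -0.06, 0.04 and -0.02 for *H2-D1*. No run holds 2 libraries of a label, so values within a run have no replicates.

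In vascular endothelial-like cells, 18 members were tested among 6936 genes and edgeR called 0 members and 0.0% of all genes at any stage. At an unadjusted p under 0.05 there were 93, 172 and 104 genes, with 0, 1 and 0 members, and DESeq2 called 0 members. *B2m* was at 3642, 2488 and 3074 CPM at rest and 3813, 2448 and 3429 at peak, *H2-D1* at 2506, 1640 and 2109 at rest and 2493, 1628 and 2355 at peak. The labels overlapped in each of these. *H2-Q6* did not overlap between rest (56.6, 25.2 and 24.6 CPM) and resolving (83.1, 72.7 and 67.2), as was so for 6.78% of all genes tested, and its log2 fold change of 1.01 was not called. No member was without overlap for peak or resolved, against 4.8% and 4.66% of all genes. Among fibroblast-like cells no member had libraries without overlap against rest, where this held for 3.14%, 3.96% and 2.55% of all genes for peak, resolving and resolved. Of the interferon and other antigen processing lists, edgeR called 0 genes at any stage in either cell type. At an unadjusted p under 0.05, 1 interferon gene was lower at peak in fibroblast-like cells and 1 was higher at resolving in vascular endothelial-like cells.

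Members separated more by the runs of barcode suffixes. Suffixes 1 to 3 belong to the libraries labelled rest 1, peak 1 and resolving 1, suffixes 4 to 6 to resolved 1, rest 2 and peak 2, suffixes 7 to 9 to resolving 2, resolved 2 and rest 3, and suffixes 10 to 12 to peak 3, resolving 3 and resolved 3. What a run stands for is not given in the sources used here. In vascular endothelial-like cells *B2m* was at 3642 to 3825 CPM in suffixes 1 to 3, 2448 to 2488 in 4 to 6, 2860 to 3154 in 7 to 9 and 3429 to 3637 in 10 to 12. *H2-D1* followed the same order, at 2493 to 2776, 1532 to 1640, 1969 to 2132 and 2355 to 2446 CPM. For both genes the 4 runs did not overlap. Of the 18 members tested, 15 had every library of suffixes 4 to 6 below every library of suffixes 1 to 3 (18.4% of all genes) and 0 had every library above (17.2%). For suffixes 7 to 9 the counts were 11 below (12.8% of all genes) and 0 above (13.6%), and for 10 to 12 they were 4 below (7.06%) and 0 above (6.26%). The summed interferon list was at 4631 to 5663, 2554 to 4010, 3222 to 3856 and 4217 to 4573 CPM over the 4 runs. Unlike *B2m* and *H2-D1*, it overlapped between suffixes 4 to 6 and 7 to 9.

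**Figure D4:**
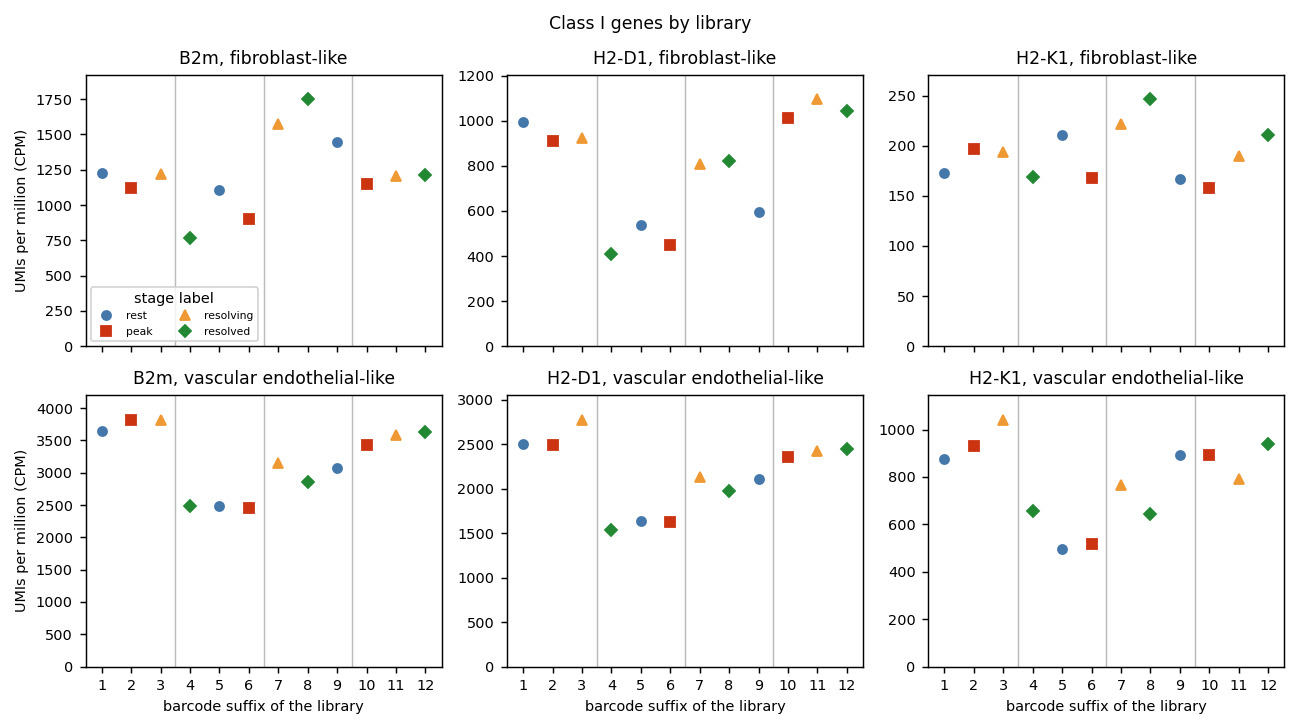
Level of *B2m*, *H2-D1* and *H2-K1* (CPM) in fibroblast-like (top) and vascular endothelial-like cells (bottom) of each library, against the barcode suffix of the library, with colour and shape for the stage label and grey lines between runs of 3 suffixes. Vascular *B2m* steps from 3642 to 3825 in suffixes 1 to 3 down to 2448 to 2488 in suffixes 4 to 6, whatever the stage label.

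In fibroblast-like cells the members split. Of 22 tested, 8 had suffixes 4 to 6 wholly below suffixes 1 to 3 (31.5% of all genes) and 4 wholly above (22.6%). For suffixes 7 to 9 there were 10 below (24.0%) and 5 above (22.1%), and for suffixes 10 to 12 there were 6 below (18.5%) and 1 above (6.05%). As shares of the members tested, several of these lie near those of all genes. *H2-D1* was at 909 to 995 CPM in suffixes 1 to 3, 411 to 539 in 4 to 6, 597 to 823 in 7 to 9 and 1011 to 1096 in 10 to 12, while *H2-K1* overlapped over the runs (158 to 246 CPM).

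The make-up of the cell types moved with the runs too. The cluster led by *Cxcl5* and *Saa3*, which has the lowest *H2-D1*, made up 44.6% of the fibroblast-like cells of suffixes 4 to 6 and 0.083%, 6.37% and 0% of the other runs, and the cluster led by *C1qtnf3* and *Spon2* 38.0% in suffixes 7 to 9. The *Selp* and *Plvap* cluster, with the lower class I level, made up 29.2%, 65%, 65.8% and 15.4% of vascular endothelial-like cells over the 4 runs. Within the 7 fibroblast clusters found in all 6 libraries, *H2-D1* was wholly lower in suffixes 4 to 6 than in 1 to 3 in 1 cluster and lower by the mean in 5, while *H2-K1* was wholly higher in 4. The interferon list did not always move with *H2-D1* between these runs. In the sublining-like cluster the mean list rose from 1247 to 2182 CPM while mean *H2-D1* fell from 1002 to 870. In the *Cytl1* and *Saa1* cluster both fell, from 674 to 456 and from 1110 to 706 CPM. Within the *Timp4* vascular cluster 3 of 18 members (*B2m*, *Psmb10* and *Psme2*) were wholly lower, and within the *Selp* cluster 12 of 18. The share of all genes that were wholly lower within a cluster was not computed, so these counts have no baseline. In the lining-like cluster, suffixes 7 to 9 had the highest *B2m* (2933 to 4350 CPM, against 1374 to 2105 in the other runs) and *H2-K1* (596 to 864 CPM, against 253 to 502). The part of the make-up in the differences between runs was not tested beyond this, and the runs and the animals pooled in them cannot be told apart.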

How the data were processed

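The authors aligned the reads to mm10 and counted them with Cell Ranger, and deposited a matrix of UMI counts (genes by cells) for each of 12 libraries. The values are whole numbers and were used as raw counts. Each library had the same median per cell, and whether depth was equalised before deposit is not given in the sources used here. There were 0 columns of other samples.

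Cells were kept with over 500 genes and 500 UMIs, under 5000 genes and at most 20000 UMIs (40000 for peak, 25000, 30000 and 30000 for the resolving replicates). Clustering (scanpy 1.11.5, Python 3.11.15, leidenalg 0.10.2) used 2000 variable genes without the members and the interferon list, 30 components, 20 neighbours and resolution 1. A cluster was named where at least 4 markers of a class were in 20% of its cells at a log2 fold change of 1 or more, and a fibroblast cluster where at least 5 of its markers were in 30%. These limits were chosen after the clusters were seen. Scrublet called 56 cells (0.279%) as doublets, was taken not to have worked, and no cell was removed.

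UMIs were summed by library and type (at least 10 cells) and tested with edgeR 4.0.16 in R 4.3.3 (quasi-likelihood, TMM, filter on low counts). Types and fibroblast subsets were compared with the library as a block, and stages without one. A call needed a Benjamini-Hochberg adjusted p under 0.05 and a log2 fold change beyond 0.5. The SE is the absolute log2 fold change divided by the root of the F statistic. DESeq2 1.42.0 was an alternative. The script was tested on simulated data.

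Depth was 7468914 to 16566202 UMIs per library. Nothing states that libraries are independent beyond the pools of 3 animals. The p-values of the stage tests therefore measure the spread between pools. Those of the type and subset tests measure how far the difference within a pool varied over pools. Members, lists and tests were chosen with earlier results of these data known. By rule, the main members of each group were named in every comparison that tested them, with any other called member and at most 3 genes of another list. Other list genes named beside a small count were chosen after their values were seen. Promoters came from RefSeq (GRCm38.p6), and 39 of 46 members matched. The leading genes and levels of 1 unnamed cluster are not reported here.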

Additional observations from a re-analysis of the deposited data

Results flagged for a closer look

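A sample far from the others of its group was found in 5 of 32 groups tested, where chance gives about 1 in 20 for independent values of equal spread. The groups share libraries and rest on sums of few cells, so no excess can be read from this count. In chondrocyte-like cells, peak replicate 2, with 10 cells, held *H2-D1* at 484.9 CPM (179 to 318 in the other libraries) and *H2-T22* at 74.6 CPM (0 to 30.2). In muscle-like cells, *B2m* was at 1094.8 CPM in rest replicate 3 (14 cells, against 366 to 687 elsewhere), *H2-K1* at 721.3 CPM in peak replicate 1 (28 cells, against 219 to 434) and *Psme1* at 183.2 CPM in resolving replicate 2 (10 cells, against 35.4 to 99.6). A signal was also present in the cells left out of the comparisons. *B2m* was at 126.6 CPM in the unnamed cluster led by *Tnnc2* (132 cells) and 1213.8 CPM in the one led by *Sfrp5* (24 cells).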

How the results depend on the processing

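Of 2836 recomputed values for the 124 called members, 2654 kept their direction and call, 181 kept the direction but lost the call, and 1 changed sign, *H2-Eb1* in chondrocyte-like cells, at -2.10 after thinning to 2000 UMIs. Of 441 recomputed stage values of *B2m*, *H2-D1* and *H2-K1*, 53 had the other sign, 1 of them by more than 1 SE, and 0 were called. That one was *B2m* in fibroblast-like cells at resolved, at -0.28 without resolved replicate 2 and at 0.26 without resolved replicate 1. The cause was not tested. After thinning, 1 member in place of 4 was called lower in the lining, since the other 3 fell below the filter on low counts. Leaving out 1 library each gave 54 to 62 higher and 49 to 57 lower calls over all types (62 and 54 with every library), 18 to 20 and 1 in vascular endothelial-like cells, 4 and 4 to 6 in the lining and 0 for stages, and DESeq2 gave 66 and 44 over all types. A fit with the replicate block also called 0 members at any stage. Same-numbered deviations correlated from -0.51 to 0.64. By expression, 8 of 12 fibroblast and 7 of 12 vascular libraries lay nearest to one of their own number. Runs of suffixes hold libraries of the same number, such as rest 1, peak 1 and resolving 1, so number and run overlap. The replicate numbers were treated as names only. An alternative without fibroblast clusters that passed 3 markers of another class was chosen after seeing the data. The clustering left the interferon list out, and no cluster led by genes of that list formed. Leaving out such a cluster could therefore not be run. Counts below 10 cells per library and heavy chains of similar sequence limit the rarer types and single class I genes.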
